A study of Homo sapiens with 5 samples.

Results

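Genes for 9 proteins that bind double-stranded RNA, or that work in a complex with such a protein, were followed in the human neuroblastoma line SH-SY5Y (CRL-2266). They were taken by symbol from the deposited tables and are STAU1, STAU2, ADAR, ADARB1, DHX9, ILF2, PRKRA, TARBP2 and EIF2AK2, 9 of 26364 gene symbols, and each was found in all 5 libraries. The libraries stand for 5 groups of 1 library each. siControl, siSTAU1 and siUPF1 were named by their titles for a control siRNA and for siRNAs against STAU1 and UPF1, and their media labels list 10% serum and 1% antibiotic. Nondifferentiation and Differentiation have the same entries plus 50 μM retinoic acid, which drives these cells towards a neuron-like state. The label lists it for both, so the titles alone separate this pair, and neither siRNA sequences nor treatment times are given in the sources used here.

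Each library was made from 500 ng of total RNA with a kit that reads the 3′ ends of polyadenylated RNA. A transcript gives reads from its end whatever its length, so the deposited log2 values are set side by side between genes on this 3′-end scale. Isoforms that share an end are added together. The counting method and annotation are not given, so an order between genes may also reflect how reads were assigned to each gene. Depth, read off the steps between low values, was about 15500000 to 18400000 reads in 4 libraries and 32800000 in Differentiation. All 10 noradrenergic neuroblastoma markers examined were above 0 in every library, and their median log2 value lay between 10.71 and 12.19. Differentiation was the lowest, with a log2 of the summed linear level of 15.27 beside 15.74 in Nondifferentiation, and the part of this in the results below was not tested. With 1 library a group there is no test and no p-value: a difference between 2 libraries is given with the 95% interval of its estimated counting error, which leaves out the spread between cultures. In bulk RNA, fewer cells with a transcript and less of it per cell cannot be told apart.

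Proteins of this kind recognise the shape of the RNA double helix and little of its sequence, mostly through a small fold called the double-stranded RNA-binding domain. STAU1 binds stems in the 3′ untranslated regions of mRNAs and recruits the helicase UPF1, which leads to Staufen-mediated decay, and its paralog STAU2 is known for carrying mRNAs in neurons. Other members edit or unwind the helix, accompany an enzyme that cuts it, or report it as a sign of virus infection.

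STAU1 itself was the only member that differed by 2-fold or more in any of the 4 comparisons made. A gene counted as measured when its higher value reached a floor, the median over all nonzero entries of the libraries compared, which was 7.76 to 7.84 on the log2 scale, and 8 of the 9 members were measured in each comparison. ADARB1 fell under this floor. In siSTAU1 against siControl 1 of 8 measured members was 2-fold different, where 0.201% of all 8454 measured genes were, and in siUPF1 against siControl 0 of 8, where 0.543% of 8475 were. In Differentiation against Nondifferentiation 0 of 8 passed 2-fold although 21.3% of 9064 measured genes did. In siControl against Nondifferentiation, a comparison of the reference libraries, it was 0 of 8 beside 0.796% of 8547. The comparisons share siControl and Nondifferentiation, so they are not independent of each other.

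At 1.5-fold the knockdown counts were the same, 1 and 0, beside 2.31% and 4.55% of all measured genes, and siControl against Nondifferentiation again gave 0, beside 5.46%. Differentiation against Nondifferentiation gave 2 of 8, DHX9 and ILF2, both lower, beside 43.5% of all genes in either direction and 21.7% lower. The median log2 fold of the 8 measured members was -0.04 in siSTAU1, 0.04 in siUPF1 and -0.07 in Differentiation, where all measured genes had 0.01, -0.01 and 0.02. Beyond the targeted gene, these counts and medians lay near the background of all genes or below it.

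**Figure D1:**
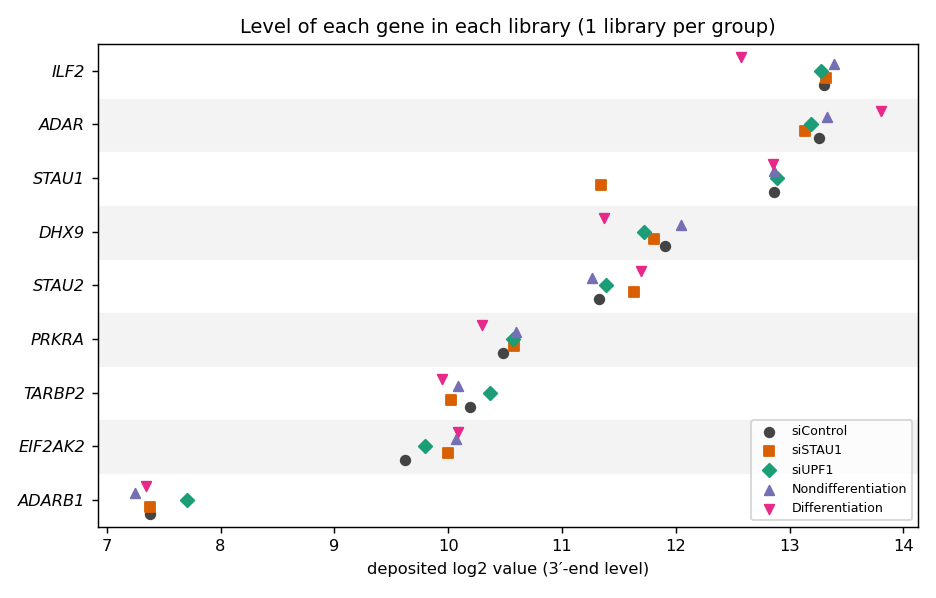
Deposited log2 value (horizontal axis, 3′-end level) of each gene in each of the 5 libraries, 1 symbol per library, with genes ordered by their median. STAU1 in siSTAU1, at 11.34, stands apart from its other 4 values, and Differentiation is the lowest library for ILF2 and DHX9 and the highest for ADAR.

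By median over the 5 libraries ILF2 had the highest log2 level at 13.30, followed by ADAR at 13.26, STAU1 at 12.86, DHX9 at 11.81, STAU2 at 11.39, PRKRA at 10.57, TARBP2 at 10.09, EIF2AK2 at 10.00 and ADARB1 at 7.38. The ranges over libraries overlapped between most neighbours in this order. For STAU1 and DHX9 this came only from the knocked-down STAU1 value of 11.34 in siSTAU1. Without that library STAU1 stood between 12.86 and 12.89, above the highest DHX9 value of 12.05. The ranges did not overlap between ADAR and STAU1, between STAU2 and PRKRA, or between EIF2AK2 and ADARB1. In siControl ILF2 lay above 98.2% of the symbols with a nonzero value and ADARB1 above 44.9%, so the group runs from very abundant messages to one of about 134 estimated reads.

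STAU1, the target of one siRNA, stood at 12.87 in siControl, 12.86 in Nondifferentiation, 12.86 in Differentiation, 11.34 in siSTAU1 and 12.89 in siUPF1. siSTAU1 was the single low library, and the other 4 lay within 0.03 of each other on the log2 scale. These levels rest on about 6001 estimated reads in siControl and 2066 in siSTAU1. The log2 fold was -1.52, with a counting interval from -1.60 to -1.45, and only 0.0473% of measured genes had a difference as large. Against Nondifferentiation it was -1.52 as well, from -1.59 to -1.45, where 0.912% of 8555 measured genes passed 2-fold. In siUPF1 the log2 fold of STAU1 was 0.02, from -0.03 to 0.07, and in Differentiation it was -0.01, from -0.05 to 0.04. The design text speaks of lower STAU1 and UPF1 during differentiation without naming mRNA or protein, and these bounds allow a fall of the STAU1 message of at most 0.05 on the log2 scale by counting error alone. UPF1 stood at 10.62 in Nondifferentiation and 10.69 in Differentiation, a log2 fold of 0.07.

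STAU2 stood at 11.32 in siControl, 11.27 in Nondifferentiation, 11.69 in Differentiation, 11.64 in siSTAU1 and 11.39 in siUPF1. It was thus highest in Differentiation and siSTAU1, and the other 3 libraries lay lower and close together. Its log2 fold in siSTAU1 was 0.31, from 0.23 to 0.39, a 1.24-fold difference that 16.7% of measured genes matched or exceeded. In Differentiation it was 0.43, from 0.36 to 0.50, matched or exceeded by 56.7% of measured genes in that wider comparison, and in siUPF1 it was 0.06, from -0.02 to 0.14. Both differences exceed counting error and neither reaches 1.5-fold. STAU2-AS1, which overlaps STAU2 on the other strand, had about 2 to 9 estimated reads per library, against 2060 or more for STAU2.

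The order of the paralogs turned over in siSTAU1. The log2 difference of STAU1 minus STAU2 inside a library was 1.54 in siControl, 1.60 in Nondifferentiation and 1.16 in Differentiation, and STAU1 was 2.24-fold to 3.02-fold higher than STAU2 in these 3 and siUPF1. In siSTAU1 it was -0.29, a 1.22-fold higher STAU2. STAU2 thus had the higher value of the paralogs in that library alone. There STAU1 differed from the median of the other 4 libraries by -1.52 and STAU2 by 0.28 on the log2 scale.

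**Figure D2:**
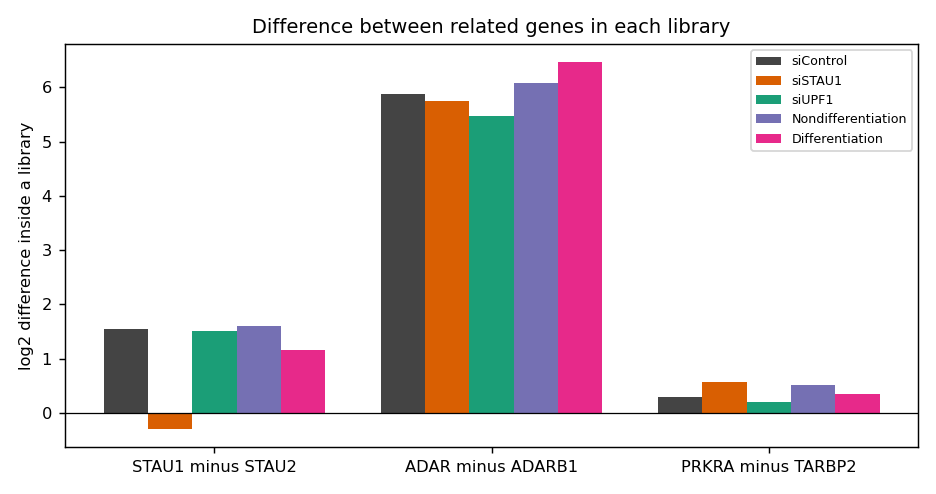
Log2 difference between related genes inside each library (vertical axis, bars from 0, 1 bar per library and no error bar because each is 1 library). STAU1 minus STAU2 is positive in 4 libraries and -0.29 in siSTAU1, while ADAR minus ADARB1 is between 5.48 and 6.46 in all 5.

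Some markers of another cell type, at low levels, also stood higher in siSTAU1. Of 10 epithelial markers 7 were above 0 in siControl and 10 in siSTAU1. The keratin genes KRT8 and KRT18, both at 2.49 in siControl, stood at 7.53 and 7.56 in siSTAU1. CDH1, ESR1 and CLDN4 were listed at 0 in siControl and had 5.21, 5.71 and 3.17 in siSTAU1, where EPCAM was at 2.26 beside 2.49. Some of these genes were above siControl in other libraries too. KRT8, KRT18 and ESR1 had 4.23, 4.74 and 4.74 in siUPF1, where CDH1 was at 0. In Differentiation KRT8, KRT18, CDH1 and ESR1 had 4.58, 3.54, 2 and 3.41, beside 2.14, 0, 0 and 0 in Nondifferentiation. KRT19 had 5.57 in siControl, 6.98 in siSTAU1, 6.27 in siUPF1 and 6.29 in Differentiation. All of these values lay under the floor of the siSTAU1 pair, 7.84, so these genes did not count as measured there. Of the 10 markers 2 reached the floor in siControl and 2 in siSTAU1. The log2 of the list's summed linear level was 10.04 in siControl, 9.99 in Nondifferentiation, 11.32 in Differentiation, 10.60 in siSTAU1 and 9.67 in siUPF1. CLDN7 and MUC1 had the highest levels of the list in both libraries of the siSTAU1 pair, but differed little there, with 9.16 and 8.71 in siControl and 8.96 and 8.78 in siSTAU1. MUC1 was highest in Differentiation, at 11.01. Of 10 hepatocyte markers, 7 or 8 were listed at 0 in each library, with ALB at 9.02 in siUPF1 the highest. The part of these signals in the differences of the Staufen genes was not tested.

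ADAR and ADARB1 encode the enzymes that change adenosine to inosine in double-stranded RNA. ADAR has a long isoform from an interferon-driven promoter and a shorter constitutive one, and ADARB1 is known for editing glutamate receptor mRNAs in neurons. ADAR stood at 13.26 in siControl, 13.33 in Nondifferentiation, 13.80 in Differentiation, 13.13 in siSTAU1 and 13.19 in siUPF1. Differentiation lay above the other 4 libraries, which spanned 0.20. Its log2 fold in Differentiation was 0.48, from 0.44 to 0.51, a 1.39-fold higher level from about 24074 estimated reads. In that comparison 52.4% of measured genes differed by at least as much. ADAR had -0.13, from -0.18 to -0.08, in siSTAU1 and -0.07, from -0.12 to -0.03, in siUPF1.

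ADARB1 stood at 7.38 in siControl, 7.25 in Nondifferentiation, 7.34 in Differentiation, 7.38 in siSTAU1 and 7.71 in siUPF1. siUPF1 was the highest library, on about 197 estimated reads, with a log2 fold of 0.33 and a counting interval from 0.01 to 0.65. ADARB1 lay under the floor there, and 21.3% of measured genes differed by at least as much. In Differentiation the fold was 0.09, from -0.20 to 0.39, which is within counting error. The log2 difference of ADAR minus ADARB1 was 6.08 in Nondifferentiation and 6.46 in Differentiation, a 67.7-fold and an 88.2-fold excess of ADAR. ADARB1 had the lowest value of the 9 genes in every library, also in the one labelled as differentiated.

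EIF2AK2 encodes PKR, the kinase that binds double-stranded RNA and then phosphorylates the translation factor eIF2. Like the long form of ADAR it is a known interferon-induced gene. EIF2AK2 stood at 9.62 in siControl, 10.07 in Nondifferentiation, 10.09 in Differentiation, 10.00 in siSTAU1 and 9.80 in siUPF1. siControl was the low library. Its log2 fold in siSTAU1 against siControl, 0.38 with an interval from 0.23 to 0.53, was the highest among the members. Against Nondifferentiation siSTAU1 had -0.07, from -0.21 to 0.06. The siUPF1 fold likewise went from 0.18 against siControl to -0.27 against Nondifferentiation, where 1.37% of all 8563 measured genes passed 2-fold and 0 of 8 members did. siControl itself had -0.45, from -0.59 to -0.31, against Nondifferentiation. The sign of EIF2AK2 in siUPF1 thus depends on which reference is taken, and its siSTAU1 difference is within counting error against Nondifferentiation. In Differentiation its fold was 0.02, from -0.09 to 0.13, beside the 0.48 of ADAR. GPATCH11, annotated across the 3′ end of EIF2AK2, stood between 9.31 and 9.72 and was highest in siControl. Strand use in counting is not given, so reads of the 2 genes may be mixed.

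The promoters of EIF2AK2 and ADAR are shown because these interferon-linked members had different folds in Differentiation. Any part of the promoters in that difference was not tested. Each line gives 120 bases before and 14 after the first RefSeq start, 5′ to 3′ on the gene's strand, from RefSeq on GRCh38.p14. In EIF2AK2 (chr2:37156967-37157100, minus strand) capitals mark the core of an interferon-stimulated response element, GAAANNGAA, and CCAAT boxes. In ADAR (chr1:154627984-154628117, minus strand) they mark an E-box, CACGTG, and CCAAT boxes. ADAR has 3 starts in the sources used here, which do not say which is interferon-driven. The line may therefore not show that promoter.
EIF2AK2: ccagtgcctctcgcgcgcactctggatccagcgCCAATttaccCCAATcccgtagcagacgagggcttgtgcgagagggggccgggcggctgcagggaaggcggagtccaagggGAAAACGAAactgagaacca
ADAR: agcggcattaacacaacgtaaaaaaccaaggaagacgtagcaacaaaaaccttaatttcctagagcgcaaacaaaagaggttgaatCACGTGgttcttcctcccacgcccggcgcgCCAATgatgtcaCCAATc

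All motifs were searched on both strands of windows from 250 bases before to 50 after a start, and the marked motifs do not overlap each other. Shares are per window, while a member was counted if any of its windows held the motif. Members with several windows, such as ADAR, thus had more room for a match. The response element core was in 8.11% of 35116 windows and began 6 bases before the EIF2AK2 start. Of the 8 members in the table none other held it, ADAR's 3 windows included. The E-box was in 7.26% of windows and, among the members, in those of ADAR and EIF2AK2. The half-site of nuclear receptors such as those for retinoic acid, AGGTCA, was in 13.8% of windows and in those of 2 members, ADAR, in a window of another start than the line above, and PRKRA. These are matches of letters in short windows and say nothing about binding in these cells.

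DHX9, also called RNA helicase A, unwinds double-stranded RNA. It stood at 11.91 in siControl, 12.05 in Nondifferentiation, 11.37 in Differentiation, 11.81 in siSTAU1 and 11.72 in siUPF1. Differentiation was the lowest library and Nondifferentiation the highest. The log2 fold of this pair was -0.68, from -0.74 to -0.62, a 1.60-fold lower level that 37.4% of measured genes matched or exceeded. Against siControl, whose label lists no retinoic acid, siSTAU1 had -0.10 and siUPF1 -0.18. The Nondifferentiation value is the highest of the 5, and against the median of the other 4 libraries the difference of Differentiation was -0.49.

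ILF2, or NF45, has no double-stranded RNA-binding domain of its own and acts as a subunit of complexes that bind such RNA. ILF2 stood at 13.30 in siControl, 13.39 in Nondifferentiation, 12.57 in Differentiation, 13.32 in siSTAU1 and 13.28 in siUPF1. Differentiation stood below the other 4 libraries, which lay within 0.12. The log2 fold was -0.82, from -0.86 to -0.78, a 1.77-fold lower level and the largest difference of a member in this comparison, although 28.7% of measured genes differed as much. In siSTAU1 and siUPF1 ILF2 had 0.01 and -0.03.

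ILF2 and DHX9 have annotated processed pseudogenes, ILF2P1, ILF2P2 and DHX9P1, which could take some of their reads. SNAPIN, annotated across the 3′ end of ILF2, was highest in Differentiation, at 11.67, where ILF2 was lowest.

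The promoters of ILF2 and DHX9, the 2 members at least 1.5-fold lower in Differentiation, are printed on the same terms, with capitals for the CCAAT box, written as CCAAT or as its complement ATTGG. ILF2 is at chr1:153670980-153671113 on the minus strand and DHX9 at chr1:182839227-182839360 on the plus strand.
ILF2: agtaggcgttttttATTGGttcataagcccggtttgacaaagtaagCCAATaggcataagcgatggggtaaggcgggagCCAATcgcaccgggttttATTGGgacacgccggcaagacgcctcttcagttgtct
DHX9: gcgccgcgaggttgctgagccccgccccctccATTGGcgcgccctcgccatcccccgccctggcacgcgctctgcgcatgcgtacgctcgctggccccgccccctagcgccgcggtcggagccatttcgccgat

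The ILF2 line shows 4 CCAAT boxes and its full window holds 5, where DHX9 has 1. A CCAAT box was in 34.6% of all windows, and 6 of the 8 members, ADAR among them, had it in at least 1 of their windows. Any part of the box in the Differentiation values was not tested.

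PRKRA and TARBP2 encode PACT and TRBP, paired partners of the microRNA-cutting enzyme Dicer, which are also known to activate and to inhibit PKR. PRKRA stood at 10.49 in siControl, 10.60 in Nondifferentiation, 10.30 in Differentiation, 10.58 in siSTAU1 and 10.57 in siUPF1. Differentiation was the low library, with a log2 fold of -0.30, from -0.39 to -0.20. TARBP2 stood at 10.19 in siControl, 10.09 in Nondifferentiation, 9.95 in Differentiation, 10.02 in siSTAU1 and 10.37 in siUPF1, and was highest in siUPF1.

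TARBP2 had a log2 fold of -0.17, from -0.30 to -0.04, in siSTAU1 and 0.17, from 0.05 to 0.29, in siUPF1. In Differentiation it had -0.14, from -0.25 to -0.02. Of measured genes 42.6%, 49.8% and 85.3%, in that order, differed by at least as much. PRKRA had 0.10, from -0.02 to 0.21, in siSTAU1 and 0.09, from -0.03 to 0.20, in siUPF1. Against Nondifferentiation TARBP2 had -0.06, from -0.19 to 0.07, in siSTAU1 and 0.28, from 0.16 to 0.40, in siUPF1. PRKRA was above TARBP2 in 5 of 5 libraries, by 0.21 to 0.56 on the log2 scale. No difference of either gene reached 1.5-fold.

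**Figure D3:**
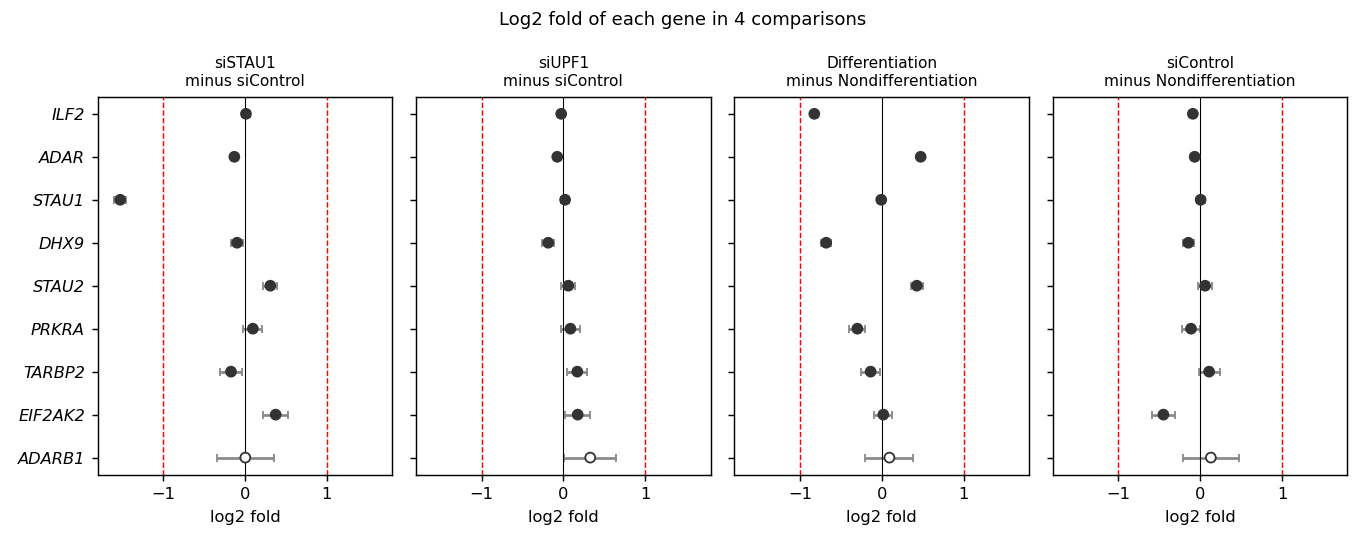
Log2 fold (horizontal axis) of each gene in 4 comparisons of 1 library with 1 library, with bars for the 95% counting interval, dashed lines at 2-fold and open circles for a gene under the floor. STAU1 in siSTAU1, at -1.52, is the only point outside the dashed lines, and ILF2 at -0.82 and DHX9 at -0.68 in Differentiation come nearest.

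**Figure D4:**
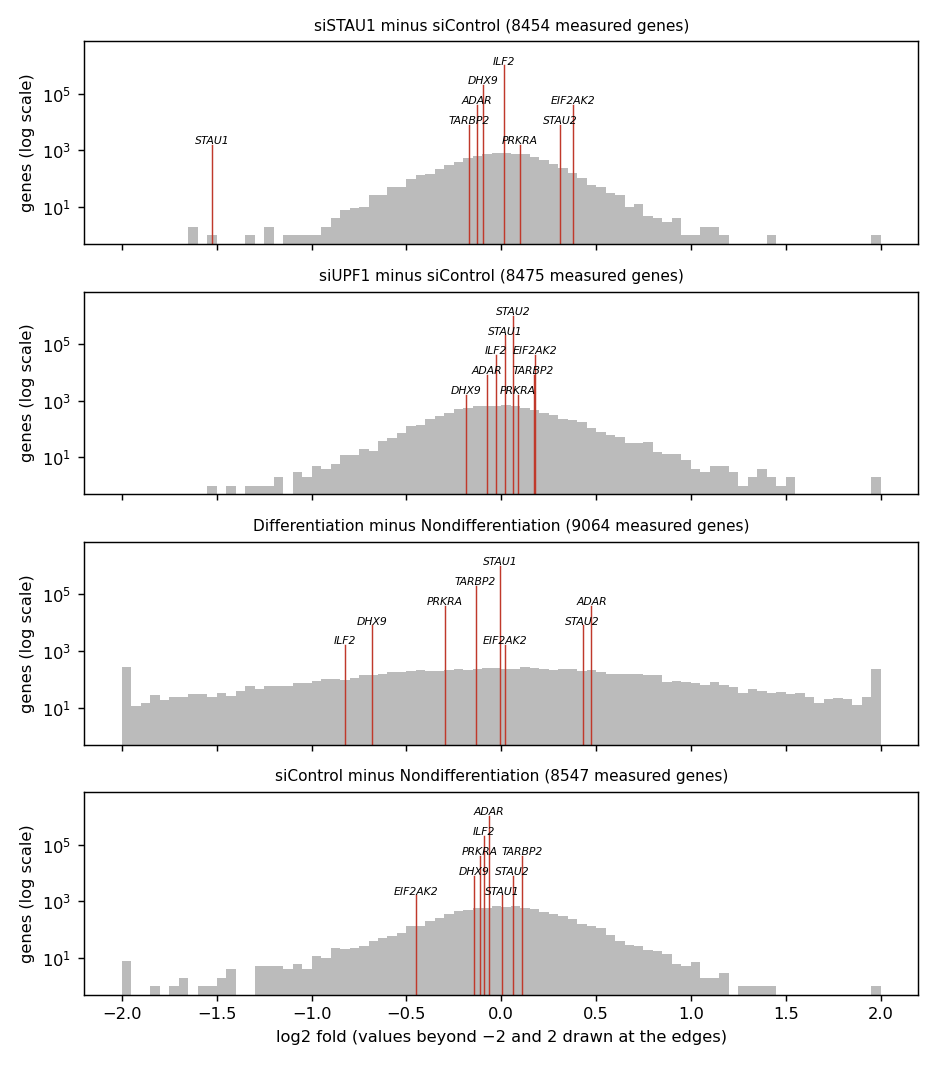
Number of measured genes (vertical log axis) by log2 fold (horizontal axis) in each comparison, with red lines at the 8 measured members, line height only separating the names. STAU1 lies in the far lower tail of the siSTAU1 panel, while the members lie in the body of the wider Differentiation panel, from -0.82 to 0.48.

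Genes with a pattern like that of a member were looked for among the 7234 other genes at or above a log2 value of 7.84 in all 5 libraries, each centred on its own mean. Likeness was the Euclidean distance over the 5 log2 values. For STAU1 the nearest were DEDD2 at 0.66, QARS, the glutaminyl-tRNA synthetase, at 0.67 and ZNF226 at 0.74, where the median distance was 1.47. QARS stood at 10.57 in siControl and 9.43 in siSTAU1, DEDD2 at 10.44 and 9.69, and ZNF226 at 9.15 and 8.32, so none had a difference as large as STAU1. For ILF2, the next most variable member, the nearest were ZNF143 and BANF1, both at 0.05, and TACO1, also at 0.05, with a median distance of 0.79. These 3 were picked by their distance to ILF2, so a like difference in Differentiation follows from the choice. ZNF143, for example, stood at 9.34 in Nondifferentiation and 8.57 in Differentiation.

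Lists of related genes, 6 in number, were examined beside the members, and their medians stand next to those of all measured genes given above. Of 12 other proteins with a double-stranded RNA-binding domain or a related RNA-binding fold, 6 were measured, and 0 passed 2-fold in any comparison. Their median log2 fold was -0.07 in siSTAU1, -0.17 in siUPF1 and 0.00 in Differentiation. STRBP, a relative known from sperm cells, was the lowest in Differentiation, at -0.52, and SON, a splicing protein of nuclear speckles, the highest, at 0.58. NKRF, a transcriptional repressor, had 0.43 in siSTAU1, the highest of the list, where the zinc finger protein ZNF346 was lowest at -0.19. It had -0.48 in siUPF1, the lowest, where the mitochondrial ribosomal protein MRPL44 was highest at 0.19.

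Of 11 microRNA processing and silencing genes, 10 were measured in the knockdown comparisons, with 0 past 2-fold and medians of -0.02 in siSTAU1 and -0.17 in siUPF1. AGO1, an Argonaute protein, was lowest in both, at -0.36 and -0.37, and AGO4 was highest, at 0.12 and 0.23. The AGO1 values share a high siControl library, 0.36 above Nondifferentiation, and against Nondifferentiation they were 0.01 and -0.01. In Differentiation all 11 were measured, 1 was higher and 0 were lower, and the median was 0.37. AGO3, another Argonaute, was the one past 2-fold, at 1.17, from 6.64 in Nondifferentiation to 7.81 in Differentiation. It passed the floor of 7.76 through Differentiation alone and was not measured in the other 3 comparisons, so the filter itself selected it for being high there. XPO5, which exports microRNA precursors from the nucleus, was the lowest of the list, at -0.57. DICER1, the enzyme that PRKRA and TARBP2 accompany, had 0.76, while those partners had -0.30 and -0.14.

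Of 18 genes for eIF2, its kinases, its exchange factor and downstream targets, 17 were measured and 0 passed 2-fold in any comparison. The median was 0.06 in siSTAU1, 0.00 in siUPF1 and -0.51 in Differentiation. EIF2B4, a subunit of the exchange factor, was lowest in both knockdown libraries, at -0.74 and -0.68, and had -0.57 and -0.51 against Nondifferentiation. PPP1R15A, which helps remove the phosphate from eIF2, was highest in siSTAU1, at 0.45. ATF4, the transcription factor translated when eIF2 is phosphorylated, was highest in siUPF1, at 0.72. Against Nondifferentiation ATF4 had 1.06 in siUPF1, past 2-fold, where 1.37% of 8563 measured genes were. There siControl itself had 0.33 for ATF4. In Differentiation EIF2B1, another exchange factor subunit, was lowest, at -0.83, and PPP1R15A highest, at 0.37. PPP1R15A had -0.66 in siControl against Nondifferentiation, so its knockdown values share the low siControl library seen with EIF2AK2.

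The 17 genes of double-stranded RNA sensing and the interferon response were mostly too low to compare. Only 3 were measured, IRF3, MAVS and TICAM1, and 0 passed 2-fold in any comparison. IRF3, the factor that switches on interferon genes, had 0.24 in siSTAU1, 0.81 in siUPF1 and 0.95 in Differentiation, but also -0.68 in siControl against Nondifferentiation. MAVS, the mitochondrial adaptor of the cytosolic sensors, had 0.91 in Differentiation, and TICAM1, the adaptor of TLR3, was lowest of the 3 throughout these pairs, at -0.20, -0.34 and 0.05. ISG15, a classical interferon-induced gene, lay under the floor at 4.82 to 5.93.

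Of 7 partners of Staufen-mediated decay, 6 were measured. UPF1 was the only one past 2-fold, at -1.53 in siUPF1, where it was the target, and stood at 9.20 there against 10.74 in siControl. Elsewhere the list ran from UPF2, the activator of UPF1, at -0.66 to the decapping enzyme DCP2 at 0.15 in siSTAU1, and from DCP2 at -0.41 to the exonuclease XRN1 at 0.71 in Differentiation. The UPF2 value rests on a high siControl library, at 9.72 beside 9.16 in Nondifferentiation and 9.05 in siSTAU1, and was -0.10 against Nondifferentiation. XRN1 was the highest in siUPF1 as well, at 0.03. The medians were -0.05 in siSTAU1, -0.15 in siUPF1 and 0.11 in Differentiation.

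Of 14 other DEAH-box helicases, the family of DHX9, 12 were measured in the knockdown and differentiation pairs, and 0 passed 2-fold. DHX16, a splicing helicase, was lowest in both knockdowns, at -0.54 and -0.49, and DHX35 highest, at 0.31 and 0.17. The DHX16 values share a siControl library at 8.67, above the 8.32 of Nondifferentiation, against which they were -0.20 and -0.15. DHX35, at 7.75 in siControl, passed the floor only through the other library of each pair. In Differentiation DHX15, which takes spliceosomes apart, was lowest, at -0.98, below the -0.68 of DHX9, and DHX16 was highest, at 0.42. The medians were 0.09, -0.14 and -0.13 in siSTAU1, siUPF1 and Differentiation. In siControl against Nondifferentiation 0 genes of the 6 lists passed 2-fold and the list medians lay between -0.09 and 0.19. IRF3 at -0.68 and PNRC2, a decapping adaptor of UPF1, at 0.60 were the ends of that range of genes.

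**Figure D5:**
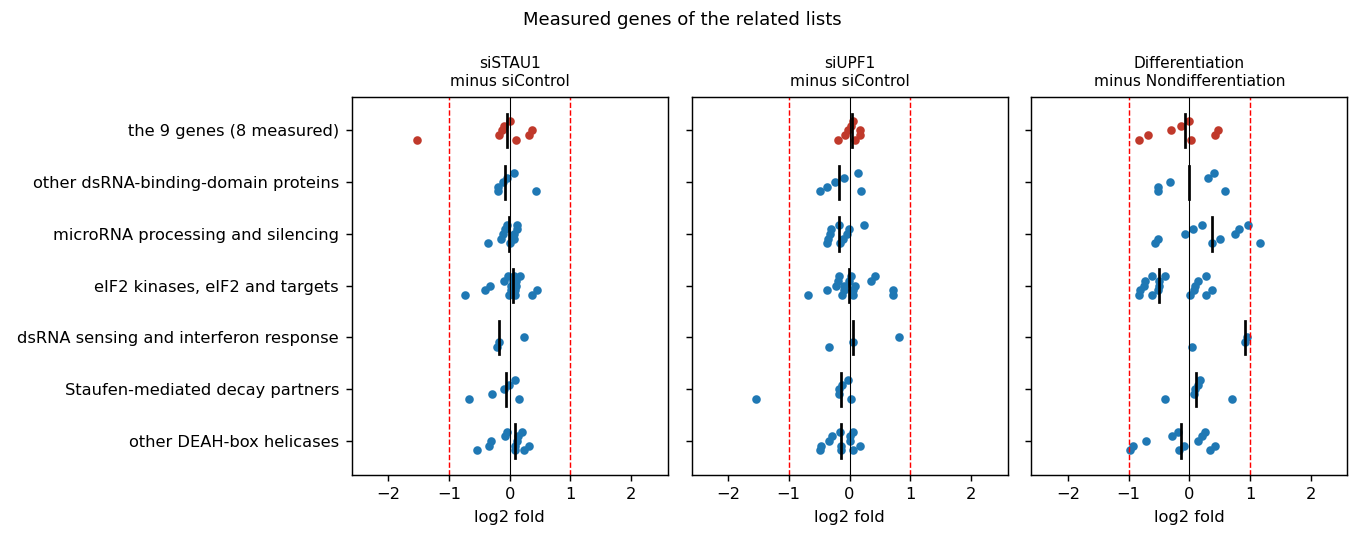
Log2 fold (horizontal axis) of each measured gene of the members (red) and of 6 related lists (blue) in 3 comparisons, with a black bar at each list's median and dashed lines at 2-fold. Only STAU1 in siSTAU1, UPF1 in siUPF1 and AGO3 in Differentiation lie outside the dashed lines, and AGO3 passed the floor through Differentiation alone.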

How the data were processed

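The authors deposited 1 log2 expression value per gene symbol and library. Per the submitters' processing notes, hg19, Bowtie2 and edgeR were used, with no versions. The counting method, the annotation behind it and any use of strand were not given in the sources used here. All 5 value distributions had the same maximum, 18.01, and upper quartiles between 8.63 and 8.64, which is the pattern of quantile normalization and removes differences in total RNA. Symbols without reads were listed at 0. The linear value of 1 read was estimated as the slope of the distinct nonzero linear values on their order, from the 5th to the 40th, and gave the estimated reads and counting intervals.

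Log2 folds are differences of deposited values. Since each group had 1 library, no test was run. All 9 members were named. Of each list the genes past 2-fold, or else the highest and lowest measured, were named, as were the 3 genes nearest to STAU1 and to the next most variable member. XPO5, DICER1, MAVS, ISG15 and the epithelial markers named were picked after their values were seen. Some genes of these lists are not reported here. The members and lists were chosen with earlier results of these data known. Overlapping genes and pseudogenes came from GENCODE 29, by name only, since its build differs from hg19. Alternatives were other floors, a pseudocount of 10 linear units, centring, a 1.5-fold threshold and another reference. The steps were tested on simulated data. Python 3.11.15, numpy 2.4.6, pandas 2.3.3 and matplotlib 3.10.9 were used.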

Additional observations from a re-analysis of the deposited data

How the results depend on the processing

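The counts of members past 2-fold were the same without a filter on low values, with a floor at the upper quartile, with a pseudocount of 10 linear units, after centring on the median fold and, for the knockdowns, with Nondifferentiation as the reference. With a 1.5-fold threshold the count in Differentiation went from 0 to 2, and the other 3 comparisons kept theirs. Of 36 single log2 folds, 36 moved by less than the counting interval under the pseudocount and 36 under centring, where the ADARB1 fold in siSTAU1, near 0, changed sign. With Nondifferentiation as the reference 9 of 18 knockdown folds moved by more than that interval and 5 changed sign. The latter were those of EIF2AK2 and PRKRA in both libraries and of ILF2 in siSTAU1. Of these, only EIF2AK2 in siUPF1 had a counting interval clear of 0 with both references. This change of reference shifts both knockdown folds of a gene by the same amount, so the 18 are not independent results. The largest shift was 0.45, for EIF2AK2, whose siControl value was the lowest of its 5. No paired analysis was possible because each group has 1 library. ADARB1, with about 133 to 273 estimated reads per library, is the member whose differences depth limits most.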
